A study of Mus musculus with 60 samples.

Results

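Protein kinase C (PKC) genes were followed through sorted mouse neurons of the medial prefrontal cortex (mPFC) and the nucleus accumbens (NAc). The 8 genes were taken by symbol, as Prkca, Prkcb, Prkcd, Prkce, Prkch, Prkci, Prkcq and Prkcz, out of 35889 genes in the summed tables. The animals were Ai14:cFos-TRAP2 mice (genotype label Ai14xFosiCre), in which a tamoxifen-inducible Cre driven from the Fos locus switches on tdTomato. Female and male mice self-administered both cocaine and sucrose, went through extinction and were tested for cue-induced reinstatement, so that all the sorted libraries share both rewards. NeuN-positive cells were sorted as the cocaine-seeking ensemble (tdTomato alone), the sucrose-seeking ensemble (cFos antibody alone), the overlapping ensemble (both) and non-ensemble cells (neither). The tdTomato tag was set by an injection right after the cocaine session. The cFos protein was stained in mice killed after a sucrose session on a later day. The tags were not counterbalanced, so reward, tagging method and time since activity cannot be told apart. Each library pools 3 mice. There are 3 pools per sex and region for each population, which gives 48 sorted libraries, and the 4 populations with the same number come from the same pool. A further 12 libraries, 3 per sex and region, are labelled naive and carry the same treatment tag as the others, so what they were naive to is not stated.

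PKCs are serine/threonine kinases that carry receptor signals coupled to phospholipase C. The conventional members alpha (Prkca) and beta (Prkcb) need both calcium and diacylglycerol, and delta (Prkcd), epsilon (Prkce), eta (Prkch) and theta (Prkcq) need diacylglycerol but not calcium. The atypical members iota (Prkci) and zeta (Prkcz) respond to neither and work with polarity proteins. In neurons the family acts on glutamate receptors, on vesicle release and on substrates such as MARCKS, GAP-43 and neurogranin.

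Sorted libraries held 9933361 to 24500899 estimated counts and naive libraries 29238727 to 45299753 estimated counts. All 8 members passed the filter on low counts in every comparison. Their counts per library were lowest for Prkch (85 to 2404, median 516.5) and Prkcd (142 to 5730, median 355). They were highest for Prkcb (3283 to 37414, median 7687) and Prkce (2615 to 26689, median 6764.5). Groups were taken from the sample titles, and other labels go against them on sex and region. The description field of the 15 libraries titled as female NAc names male prefrontal cortex, that of the 15 titled as male mPFC names female NAc core, and the sex tag follows the title except in male mPFC pool 3, where the overlapping and the sucrose-seeking libraries are tagged female. The region names were only in part borne out by marker genes. In the libraries labelled mPFC, Ppp1r1b (DARPP-32, abundant in striatal projection neurons) reached 97.9 to 626 CPM (counts scaled to one common library total) over 6 pools, against 514 to 1036 CPM in the NAc. Slc17a7 (VGLUT1, a marker of cortical excitatory neurons) went against the names. It was at 22.3 to 479 CPM (mean 171) in the libraries labelled mPFC and at 174 to 507 CPM (mean 293) in the NAc. Only in male pool 3 was it higher in the libraries labelled mPFC (479 against 194 CPM). The samples titled as mPFC are therefore called the libraries labelled mPFC below. The sorted libraries of female pool 2 held 12.1 to 20.3 CPM of the Y-linked gene Ddx3y, against 0.0666 to 2.27 CPM in the other female pools and 15.6 to 45.0 CPM in males, so averages that use this pool were also computed without it. The defining markers of astrocytes, microglia, oligodendrocytes and endothelial cells were above 0 in each of the 48 sorted libraries.

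The members lie on 8 chromosomes of the GRCm39 build. Prkca is at chr11:107824212-108235099 on the minus strand, Prkcb at chr7:121887974-122233625 on the plus strand and Prkcd at chr14:30317307-30349238 on the minus strand. Prkce is at chr17:86474992-86965429 (plus), Prkch at chr12:73631009-73824959 (plus), Prkci at chr3:31049886-31107108 (plus), Prkcq at chr2:11176911-11306043 (plus) and Prkcz at chr4:155344575-155445909 (minus). The files list 55 transcripts of these genes, from 4 for Prkca and Prkch to 13 for Prkcd.

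In 3 members annotated transcripts differ in what they can encode, and the sequence at which a pair of them part is shown for each, 5′ to 3′. The pair shown does not always hold the most counts. Averaged over libraries, Prkcb-201 took 1.29% of Prkcb counts and Prkcq-201 3.02% of Prkcq counts. Prkcz-201 has 592 codons. Prkcz-202, which has 409 codons, starts at codon 184 of Prkcz-201 in the same frame and so lacks the codons of the regulatory part. This short form is the one known in brain as PKMzeta, studied for its role in maintaining synaptic potentiation. In the spliced stretch at chr4:155377670-155378756 (minus strand), lower case letters are coding in Prkcz-201 only, and capitals are coding in both transcripts from the start codon of the short form on.
Prkcz: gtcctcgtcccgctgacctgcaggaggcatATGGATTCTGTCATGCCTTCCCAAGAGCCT
Prkcb-201 and Prkcb-202 share 621 codons and then end on different last coding exons, with 50 and 52 codons of their own, which are the forms known as beta I and beta II. Capitals mark the last shared coding bases. The printed stretches are spliced and span chr7:122200024-122232997 in Prkcb-201 and chr7:122200024-122226908 in Prkcb-202 (plus strand).
Prkcb-201: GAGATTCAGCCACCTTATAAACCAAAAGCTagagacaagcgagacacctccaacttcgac
Prkcb-202: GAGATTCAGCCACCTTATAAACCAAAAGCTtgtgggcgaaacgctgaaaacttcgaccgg
Prkcq-203 is annotated as a retained-intron transcript. It has 12 exons and 3970 bases, and its last exon runs on past exon 12 of the protein-coding Prkcq-201 into 2259 bases of the following intron. At chr2:11265608-11265667 (plus strand), capitals are the last exonic bases of Prkcq-201 and lower case letters are its intron.
Prkcq-203: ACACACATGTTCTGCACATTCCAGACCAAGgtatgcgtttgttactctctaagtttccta

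Levels were compared between members per transcript length, as the deposited TPM (counts divided by effective length and scaled to one common total), averaged over the 4 sorted populations of each pool. In the NAc, Prkcb (392.2 ± 55.7 TPM) and Prkce (365 ± 34.9 TPM, SD, n = 6 pools) stood at the top and overlapped each other. Prkcz followed at 198 ± 21.9 TPM and Prkca at 71.6 ± 14.1 TPM, each apart from its neighbours. Below them Prkci (35.8 ± 8.16 TPM) overlapped Prkcq (34.9 ± 4.96 TPM), and Prkcd (25.0 ± 1.54 TPM) overlapped Prkch (21.8 ± 6.46 TPM). The NAc order thus ran from a conventional and a diacylglycerol-only member down to PKC delta and eta.

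In the libraries labelled mPFC the order differed mainly by Prkcd. Prkce (362 ± 38.5 TPM), Prkcb (300.0 ± 41.0 TPM), Prkcd (208 ± 82.9 TPM) and Prkcz (164 ± 6.34 TPM) overlapped each next one in turn. Prkca (71.6 ± 28.4 TPM), Prkcq (43.7 ± 11.8 TPM), Prkci (31.6 ± 11.2 TPM) and Prkch (18.7 ± 8.56 TPM) formed a second run of overlapping neighbours, with no overlap between Prkcz and Prkca. Prkcd thus stood among the 4 highest members there and among the 2 lowest in the NAc.

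**Figure D1:**
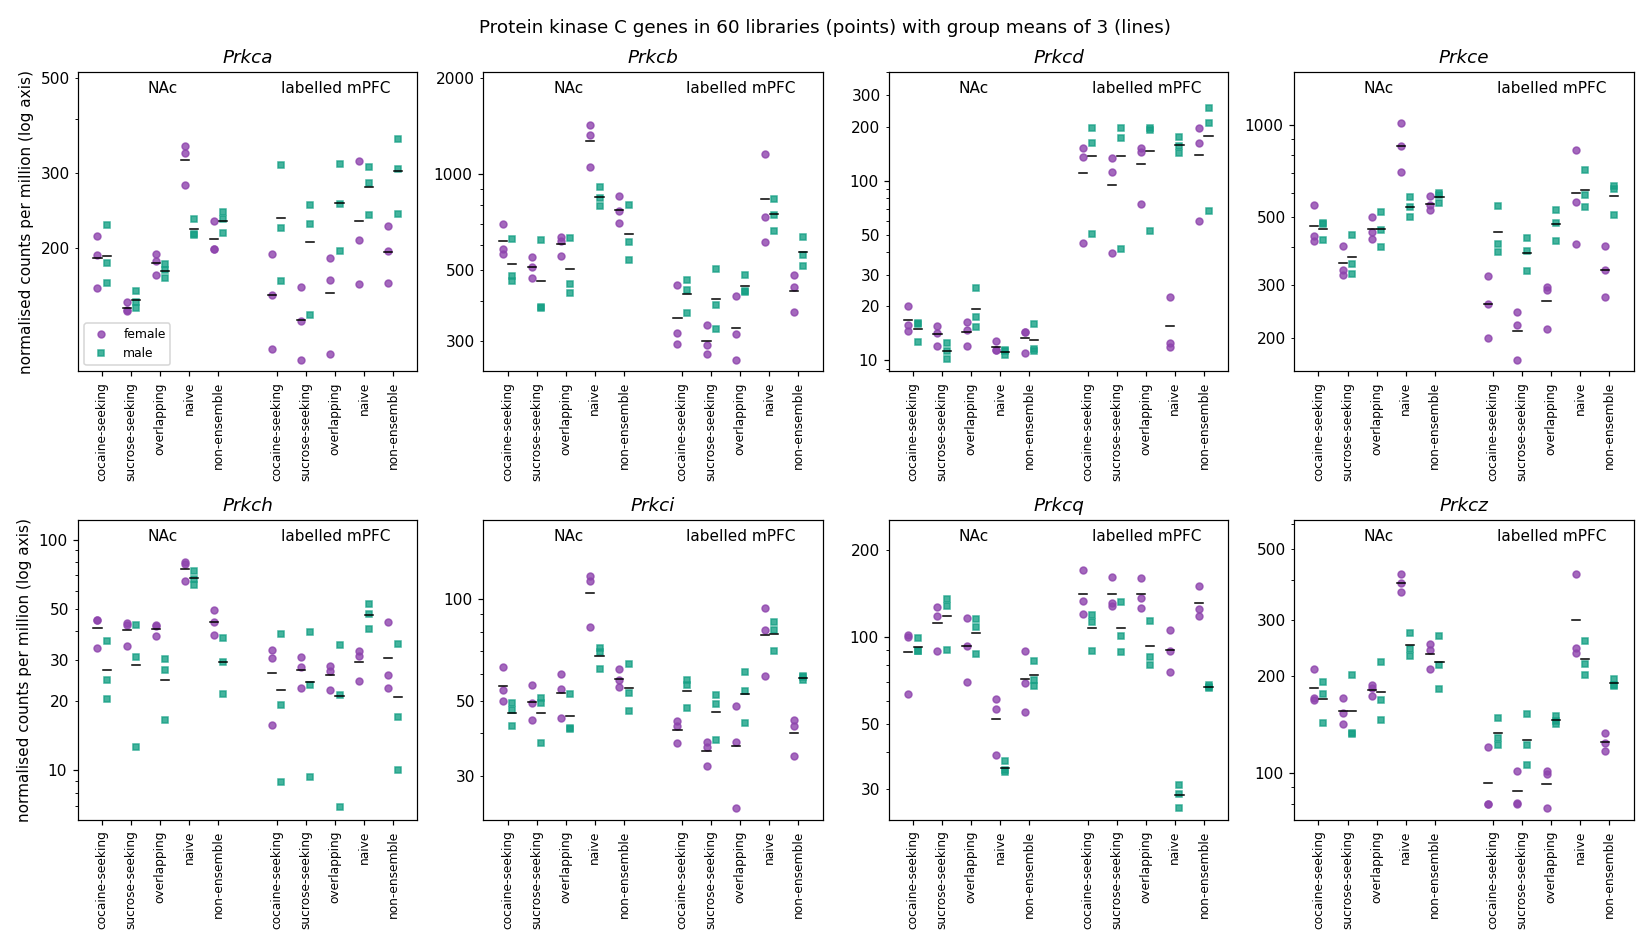
Level of each of the 8 Prkc genes in all 60 libraries, in TMM-scaled CPM on a log axis, with one panel per gene, the populations along the x axis for the NAc and then the libraries labelled mPFC, and sexes by marker. Lines are the means of the 3 libraries of a sex, region and population. Prkcd shows the widest range between regions, from 10.2 CPM in a NAc library to 254 CPM in a library labelled mPFC.

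Prkcd, which encodes PKC delta and marks a class of inhibitory neurons of the central amygdala, was the member that differed most between regions. When the 4 sorted populations of a pool were added up, female NAc pools had 14.5, 16.6 and 12.6 CPM of Prkcd and male NAc pools 13.6, 14.5 and 15.3 CPM. The pools labelled mPFC had 53.1, 157 and 136 CPM in females and 210, 185 and 53.4 CPM in males. Each NAc pool lay below each pool labelled mPFC, and the fitted difference was the same in direction in both sexes (NAc over mPFC, log2 fold change = −3.08, SE = 0.31, adjusted p = 4.28e-06 by the edgeR quasi-likelihood test with Benjamini-Hochberg adjustment over all genes). In females alone it was −2.82 (SE = 0.43, adjusted p = 0.000335) and in males alone −3.34 (SE = 0.44, adjusted p = 0.000303).

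The Prkcd level within the libraries labelled mPFC split by pool rather than by population. In female pool 1 and male pool 3 it lay between 39.8 and 74.5 CPM in the 4 sorted populations, and in the other 4 pools between 112 and 254 CPM. Slc17a7 and Ppp1r1b did not order the pools in the same way. Their summed levels in the pools labelled mPFC were 56.6, 22.3 and 69.2 CPM of Slc17a7 and 424, 383 and 229 CPM of Ppp1r1b in females. In males they were 359, 37.3 and 479 CPM of Slc17a7 and 97.9, 626 and 335 CPM of Ppp1r1b. Whether the tissue taken bears on the Prkcd difference was not tested, and in pooled bulk libraries fewer cells of a type and less RNA per cell cannot be told apart.

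**Figure D2:**
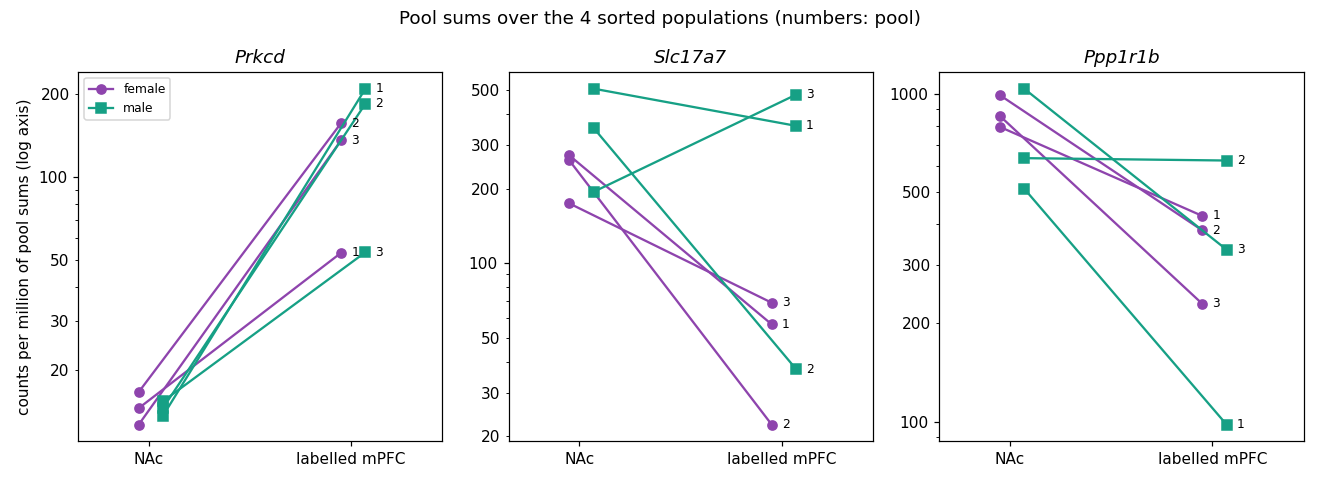
Summed sorted libraries of each pool, in CPM on a log axis, for Prkcd, Slc17a7 and Ppp1r1b, with the NAc at the left and the libraries labelled mPFC at the right of each panel and a line per pool. Prkcd lies between 12.6 and 16.6 CPM in the 6 NAc pools and between 53.1 and 210 CPM in the 6 pools labelled mPFC.

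Prkcd was also the gene whose leading transcript shifted most with region. Prkcd-207, a protein-coding transcript, held 28.9 ± 9.89% of the gene's counts in the NAc pools and 60.8 ± 5.54% in the pools labelled mPFC (SD, n = 6 each, 2-sided exact permutation test, p = 0.0022, which is the smallest p that 924 arrangements allow, adjusted p = 0.017 over the 8 members). Over single sorted NAc libraries, where Prkcd counts were low, it ranged from 0 to 59.8%. Of the other members, Prkcq-203 held 92.3 ± 1.13% in the NAc and 94.5 ± 1.43% in the libraries labelled mPFC (exact permutation p = 0.0087, adjusted p = 0.035). The remaining 6 did not pass, with adjusted p from 0.14 for Prkch-201 (61.8 ± 9.09% in the NAc, 49.3 ± 10.4% in the libraries labelled mPFC) to 0.52 for Prkci-201. These tests take the pools as independent samples. With same-numbered pools of a sex paired across regions, Prkcd-207 and Prkcq-203 each reached the smallest p that 6 pairs allow (2-sided exact sign-flip test, p = 0.031, adjusted p = 0.12), and no member passed. With protein-coding transcripts alone, the regional log2 fold change of Prkcd was −3.75.

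Of the 8 members, 5 passed the test between regions over both sexes, against a background of 22.8% of all genes tested. The members' median log2 fold change was 0.39 and that of all genes −0.14. Beside Prkcd, which was lower in the NAc, 4 members were higher there. These were Prkcz (log2 fold change = 0.72, SE = 0.13, adjusted p = 0.00106), Prkcb (0.63, SE = 0.15, adjusted p = 0.00645), Prkce (0.49, SE = 0.14, adjusted p = 0.0191) and Prkci (0.30, SE = 0.10, adjusted p = 0.0395, all by edgeR). Prkci lost its call without any 1 of 10 of the 12 pool sums, with a lowest log2 fold change of 0.24, and Prkce without female NAc pool 2 (0.43) or male NAc pool 3 (0.45). Prkch, Prkcq and Prkca did not pass (log2 fold changes of 0.58, −0.17 and −0.01), though Prkch passed with the replicate block, which pairs the regions of a pool (0.66, adjusted p = 0.00864, 6 of 8 called on a background of 24.2%). With length-scaled counts, made from the deposited TPM, Prkcd, Prkcz and Prkcb kept their calls (−2.85, 0.51 and 0.64), while Prkce (0.25) and Prkci (0.49) lost theirs.

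In the female pools none of Prkcz, Prkcb, Prkce and Prkci overlapped between regions. The share of all genes without overlap was not counted, and 41.9% of genes were called between regions in females. Prkcz had 173, 201.96 and 185 CPM in female NAc pools and 90.6, 113 and 92.7 CPM in female pools labelled mPFC. In males it had 152, 175 and 221 CPM in the NAc and 150, 157 and 141 CPM in the libraries labelled mPFC, which overlap. Prkce had 422, 500 and 427 CPM in female NAc pools against 212, 308 and 272 CPM in female pools labelled mPFC. In males Prkce had 471, 432 and 505 CPM in the NAc against 525, 422 and 466 CPM in the libraries labelled mPFC. Prkcb showed the same arrangement in females (577, 654 and 626 CPM in the NAc, 329, 414 and 308 CPM in the libraries labelled mPFC). In males Prkcb overlapped, with 455, 489.5 and 671 CPM in the NAc and 449.9, 525 and 413 CPM in the libraries labelled mPFC. Prkci had 49.9, 57.3 and 53.7 CPM in female NAc pools against 35.8, 39.5 and 38.5 CPM in female pools labelled mPFC. In males Prkci lay the other way in 3 of 3 pools, with 49.2, 49.1 and 46.6 CPM in the NAc against 54.2, 54.8 and 48.6 CPM in the libraries labelled mPFC.

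In females 5 members passed (background 41.9% of genes), with log2 fold changes of 1.10 for Prkcz (SE = 0.18, adjusted p = 0.00062), 1.00 for Prkcb, 0.95 for Prkce and 0.68 for Prkci by edgeR. In males only Prkcd passed (background 1.89%). The test of the difference between the sexes called none of the 8 by edgeR (background 0%). Of the 8, 5 were at an unadjusted p under 0.05, beside 9939 of 31794 genes tested. DESeq2 called 5 on a background of 25%, and the replicate block called Prkci and Prkce (0.77 and 0.93, edgeR adjusted p = 0.0472 and 0.0457, background 3.99%). The smallest p without the block was that of Prkci (female minus male, 0.77, SE = 0.20, adjusted p = 0.0934). Pan-neuronal markers (4 genes) moved with region as well, summing to 1622 to 2926 CPM over sorted NAc libraries (median 2218) and 757 to 2523 CPM over sorted libraries labelled mPFC (median 1477), and their part in these differences was not tested.

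Between sorted populations, the comparison of sucrose-seeking with non-ensemble neurons held the most calls. In the NAc, averaged over the sexes, counts of the conventional members Prkca and Prkcb, of Prkce and of Prkcz fell in the sucrose-seeking ensemble, and those of Prkcq rose. That is 5 of 8 members against a background of 27% of genes, with a median of −0.46 for the members and 0.20 for all genes. Prkca and Prkcb kept their call with length-scaled counts, Prkce, Prkcz and Prkcq lost theirs, and Prkci gained one.

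Prkca had 142 to 158 CPM (median 147) in 6 sucrose-seeking NAc libraries and 198 to 243 CPM (median 224) in 6 non-ensemble NAc libraries. The groups did not overlap, and sucrose-seeking was lower in 6 of 6 pools (log2 fold change = −0.65, SE = 0.09, edgeR adjusted p = 5.33e-05). With length-scaled counts the log2 fold change of Prkca was −1.01. Prkcb had 380 to 624.5 CPM (median 493) in sucrose-seeking and 538 to 852 CPM (median 735) in non-ensemble NAc libraries, lower in 6 of 6 pools although the groups overlap (−0.61, SE = 0.14, edgeR adjusted p = 0.00171). Its length-scaled log2 fold change was −0.67.

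Prkce, PKC epsilon, gave a different answer in counts and in TPM. It had 322, 401 and 336 CPM in female and 350, 324 and 437 CPM in male sucrose-seeking NAc libraries. Non-ensemble NAc libraries had 529, 586 and 547 CPM in females and 592, 555 and 599 CPM in males. Every sucrose-seeking library lay below every non-ensemble library (−0.72, SE = 0.11, edgeR adjusted p = 6.34e-05). In TPM, Prkce averaged 392.3 ± 39.02 in sucrose-seeking and 327 ± 51.3 in non-ensemble NAc libraries (SD, n = 6 each), and with length-scaled counts its log2 fold change was −0.0041.

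The effective length, which Salmon estimates per library and by which it divides counts to obtain TPM, was shorter in the sucrose-seeking libraries for the main Prkce transcript. Prkce-201, annotated at 3161 bases, had effective lengths of 621 to 1141 bases (median 799) in sucrose-seeking and 1217 to 2684 bases (median 1564) in non-ensemble NAc libraries. Prkce-202, at 6254 bases, had 4479 to 5229 bases (median 4676) against 5389 to 5893 bases (median 5477). The direction of the Prkce difference therefore rests on whether counts or TPM are read. Such shortening was not particular to Prkce. Weighted over transcripts, median effective lengths were also shorter in sucrose-seeking NAc libraries for Prkcz (824 against 1439 bases), Prkcb, Prkcd and Prkch. They were longer for Prkca, Prkci (1906 against 1431.5 bases) and Prkcq.

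Prkcz had 132 to 202.8 CPM (median 148) in sucrose-seeking and 183 to 268 CPM (median 229) in non-ensemble NAc libraries, lower in 6 of 6 pools (−0.62, SE = 0.13, edgeR adjusted p = 0.000845). Its length-scaled log2 fold change was −0.37, which did not pass. Prkcq, PKC theta, known for signalling at the T cell receptor, had 89.3 to 136 CPM (median 123) in sucrose-seeking and 55.2 to 89.6 CPM (median 70.2) in non-ensemble NAc libraries and was higher in 6 of 6 pools (0.59, SE = 0.14, edgeR adjusted p = 0.0034). This rise was one of the retained-intron transcript described above. Length scaling brought Prkcq to 0.17 and protein-coding transcripts alone to −0.30, and neither passed. Prkci missed the threshold (−0.31, SE = 0.12, adjusted p = 0.052, edgeR) and passed with the replicate block (adjusted p = 0.0246, 6 of 8 called on a background of 32.9%) and with length-scaled counts (−0.99, adjusted p = 0.00829). Prkch (−0.15) and Prkcd (−0.14) did not pass.

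Within each sex the same NAc comparison gave 4 calls in females and 3 in males, and no other comparison within a sex and region gave any (7 of 160 member tests by edgeR, 42 at an unadjusted p under 0.05, 16 calls by DESeq2 and 48 with the replicate block). The backgrounds were 15.9% of genes in females and 9.39% in males, 1.28% over the 20 comparisons within sex and region, 3.88% over these by DESeq2 and 6.2% with the block. The 42 tests at an unadjusted p under 0.05 were not set against a total over all genes. Within single comparisons, the genes at such a p ranged from 380 of 25409 to 7734 of 25607. The lowest was cocaine-seeking over overlapping in the male libraries labelled mPFC, and the highest sucrose-seeking over non-ensemble in the female NAc. In females Prkcz (−0.65), Prkce (−0.71), Prkca (−0.59) and Prkcb (−0.65) fell, with edgeR adjusted p from 0.0065 to 0.0077, and all 4 calls were lost without sucrose-seeking replicate 3 at little change in size (−0.66, −0.69, −0.60 and −0.67, adjusted p from 0.0507 to 0.053). In males Prkce (−0.70, adjusted p = 0.0186) and Prkca (−0.67, adjusted p = 0.0175) fell and Prkcq (0.63, adjusted p = 0.0303) rose. All 3 male calls were lost without sucrose-seeking replicate 2 or without non-ensemble replicate 3, and those of Prkcq and Prkce also without sucrose-seeking replicate 1 or non-ensemble replicate 2. In these fits Prkcq was at 0.51 to 0.63, Prkce at −0.57 to −0.71 and Prkca at −0.61 to −0.68, with adjusted p from 0.0504 to 0.132. Whether the effect differed between the sexes was not tested.

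The same comparison in the libraries labelled mPFC gave 4 calls (background 13%), with a members' median of −0.45 and an all-gene median of 0.12. Prkce had 170, 244 and 222 CPM in female and 428, 386 and 333 CPM in male sucrose-seeking libraries, against 272, 401 and 334 CPM in female and 621, 509 and 633 CPM in male non-ensemble libraries (−0.61, SE = 0.14, edgeR adjusted p = 0.00618). The ranges overlap across sexes, but each sucrose-seeking library was below the non-ensemble library of its pool. Prkcz (80.0 to 153 CPM, median 104, against 117 to 196 CPM, median 160) fell by 0.52 on the log2 scale (SE = 0.12, edgeR adjusted p = 0.00562). Prkcb (273 to 506 CPM, median 332, against 369 to 635 CPM, median 501) fell by 0.47 (SE = 0.13, edgeR adjusted p = 0.0197).

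Prkcq (89.0 to 162 CPM, median 130, against 66.6 to 150 CPM, median 93.4) rose in the libraries labelled mPFC by 0.41 on the log2 scale (SE = 0.13, edgeR adjusted p = 0.0403), and with protein-coding transcripts alone was at −0.43. Prkca was lower in 6 of 6 pools without passing (−0.51, SE = 0.18, adjusted p = 0.0587 by edgeR). With the replicate block 6 members passed (background 25.3%), Prkca and Prkcd (−0.46, adjusted p = 0.00018 by edgeR) in addition. The call of Prkcq was lost without any 1 of the 6 pools (0.29 to 0.47, edgeR adjusted p from 0.0543 to 0.181). No call was left without female pool 3 (Prkcz −0.51, Prkce −0.63 and Prkcb −0.49, adjusted p from 0.0608 to 0.0956), that of Prkcb was also lost without male pool 1 or 3 (−0.48 each), and none of the 4 passed with length-scaled counts.

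**Figure D3:**
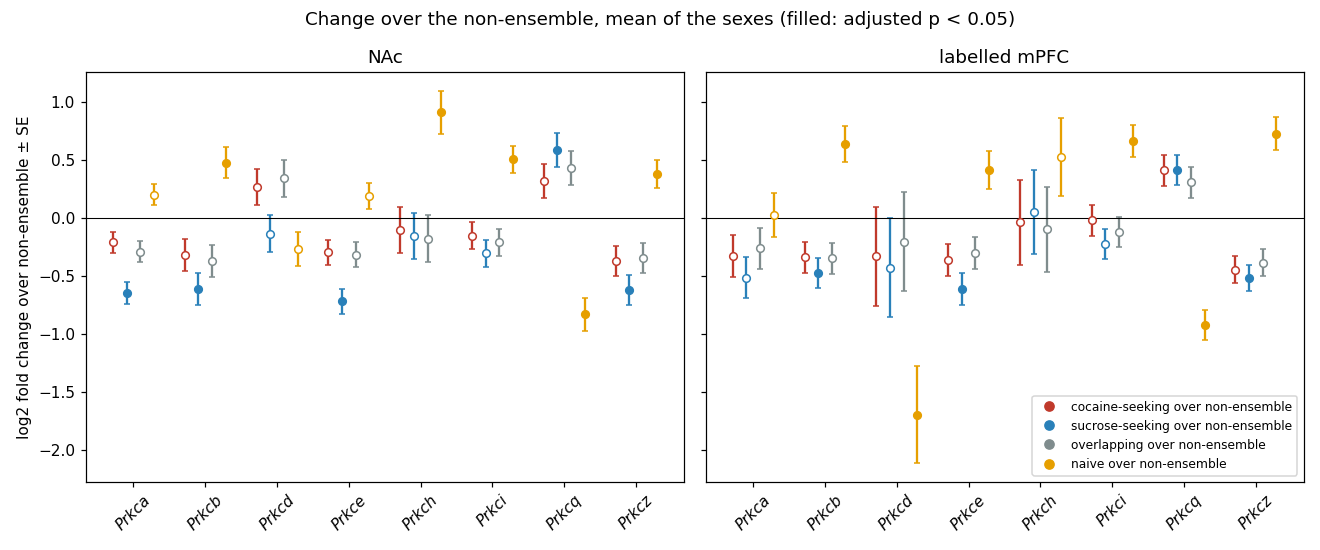
Log2 fold change ± SE of the 8 Prkc genes for cocaine-seeking, sucrose-seeking, overlapping and naive libraries over non-ensemble libraries, averaged over the sexes, in the NAc and in the libraries labelled mPFC. Filled points have an adjusted p under 0.05, which holds for 5 members in the sucrose-seeking NAc, 4 in the sucrose-seeking libraries labelled mPFC, 5 and 6 in the naive libraries, and none in the cocaine-seeking or overlapping ensembles.

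Other cell markers moved with the sucrose-seeking libraries. The 4 pan-neuronal markers summed to 1622 to 2029 CPM (median 1801) in sucrose-seeking and 2508 to 2926 CPM (median 2806) in non-ensemble NAc libraries. The 5 endothelial markers summed to 88.6 to 230.4 CPM (median 199) against 54.3 to 104 CPM (median 76.2), and the 5 astrocyte markers to 512 to 688 CPM (median 575) against 728 to 975 CPM (median 930). Retained-intron transcripts took 8.68 to 10.5% of all counts in sucrose-seeking and 5.00 to 6.59% in non-ensemble NAc libraries, and 9.07 to 12.1% against 5.76 to 8.98% in the libraries labelled mPFC. The part of these shifts in the changes of Prkca, Prkcb, Prkce, Prkcz and Prkcq was not tested.

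Cocaine-seeking neurons gave fewer calls against non-ensemble neurons. In the NAc edgeR called none of the members (background 0.145% of 27546 genes), and DESeq2 called 1 (background 5.37% of 7786 genes). At an unadjusted p under 0.05 were 5 members, beside 4628 of 27546 genes tested. Prkcz had the smallest p, with 143 to 211 CPM (median 174) in cocaine-seeking and 183 to 268 CPM (median 229) in non-ensemble NAc libraries, lower in 6 of 6 pools (−0.37, SE = 0.13, adjusted p = 0.189). With the replicate block 5 members passed (background 9.35%), Prkcz, Prkce (−0.30), Prkcb (−0.32) and Prkca (−0.22) lower and Prkcq (0.32) higher in cocaine-seeking neurons, by edgeR adjusted p from 0.00179 to 0.0454.

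Again edgeR called none in the libraries labelled mPFC (background 0.0901%), and DESeq2 called 1 (background 6.08%). At an unadjusted p under 0.05 were 4 members, beside 5543 of 28851 genes tested. Prkcz had 79.6 to 148 CPM (median 121) in cocaine-seeking and 117 to 196 CPM (median 160) in non-ensemble libraries (−0.45, SE = 0.12, adjusted p = 0.0869, lower in 6 of 6 pools). With the block 6 passed (background 15.8%), Prkca, Prkcb, Prkce and Prkcz lower and Prkcq higher as in the NAc, and Prkcd lower (−0.34, edgeR adjusted p = 0.00736). For Prkcd, whose level split by pool, the SE without the block was 0.43.

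For the overlapping ensemble against non-ensemble neurons, edgeR called 0 of 8 in the NAc (background 1.97%). There 6 members were at an unadjusted p under 0.05, beside 6200 of 27546 genes tested. DESeq2 called 3 on a background of 8.64%, and the block gave 5 on a background of 16%. Prkca had 170 to 194 CPM (median 180) in overlapping and 198 to 243 CPM (median 224) in non-ensemble NAc libraries, without overlap (−0.29, SE = 0.09, adjusted p = 0.0782). The libraries labelled mPFC had 0 of 8 called (background 0.568%). There 4 members were at an unadjusted p under 0.05, beside 5319 of 28851 genes tested. DESeq2 called 2 on a background of 7.51%, and the block gave 5 on a background of 14.4%. Prkcz had the smallest p in the libraries labelled mPFC, with 77.6 to 150 CPM (median 122) against 117 to 196 CPM (median 160, −0.38, SE = 0.12, edgeR adjusted p = 0.107).

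Set directly against the overlapping ensemble, the cocaine-seeking ensemble gave no call in either region by edgeR, DESeq2 or the replicate block, and no member had an unadjusted p under 0.05 (background 0%). The log2 fold changes lay between −0.11 (Prkcq) and 0.08 (Prkca) in the NAc and between −0.13 (Prkcd, SE = 0.43) and 0.11 (Prkcq, SE = 0.13) in the libraries labelled mPFC. These comparisons share non-ensemble or cocaine-seeking libraries with those above.

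Against the sucrose-seeking ensemble, the cocaine-seeking ensemble had higher counts of Prkca and Prkce in the NAc (2 of 8, background 5.29%). Prkca had 161 to 226 CPM (median 188) in cocaine-seeking and 142 to 158 CPM (median 147) in sucrose-seeking NAc libraries, with no overlap (0.44, SE = 0.09, edgeR adjusted p = 0.0135). Prkce had 417 to 549 CPM (median 453) against 322 to 437 CPM (median 343), higher in 6 of 6 pools (0.42, SE = 0.11, edgeR adjusted p = 0.0264). Both calls were lost without any 1 of female pools 1, 2 and 3 and male pools 1 and 2 (Prkca at 0.34 to 0.43, Prkce at 0.35 to 0.39), and with length-scaled counts, under which Prkca was at 0.88 and Prkce at 0.04.

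With the replicate block 5 members passed (background 15%), Prkcb (0.31) and Prkcz (0.26) higher and Prkcq (−0.27) lower in addition. For the libraries labelled mPFC edgeR called none (background 0.416%), none was at an unadjusted p under 0.05 and DESeq2 called none. Prkce had the smallest p there (0.25, SE = 0.14, adjusted p = 0.691) and was the only member to pass with the block (0.24, edgeR adjusted p = 0.0279, background 5.56%).

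Naive libraries, set against non-ensemble libraries, had more Prkch, Prkci, Prkcb and Prkcz and less Prkcq in the NAc (5 of 8 by edgeR, background 21.6%). Prkch, PKC eta, had 66.0, 78.3 and 79.6 CPM in female and 73.4, 67.7 and 63.3 CPM in male naive NAc libraries. Non-ensemble NAc libraries had 43.9, 38.4 and 49.6 CPM in females and 21.5, 29.3 and 37.5 CPM in males, so that the groups did not overlap (0.91, SE = 0.19, edgeR adjusted p = 0.00087). Prkci, a partner of the Par6 polarity protein, had 62.1 to 117 CPM (median 77.1) in naive and 46.6 to 64.0 CPM (median 56.2) in non-ensemble NAc libraries (0.51, SE = 0.12, edgeR adjusted p = 0.00267). Prkcb rose by 0.48 (SE = 0.13, adjusted p = 0.0121) and Prkcz by 0.38 (SE = 0.12, adjusted p = 0.0269). Prkcq had 34.2 to 61.3 CPM (median 38.2) against 55.2 to 89.6 CPM (median 70.2) and fell by 0.83 on the log2 scale (SE = 0.14, edgeR adjusted p = 0.00012).

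Among the libraries labelled mPFC 6 of 8 passed (background 39%). Prkcz had 202.05 to 419 CPM (median 241) in naive and 117 to 196 CPM (median 160) in non-ensemble libraries, without overlap (0.73, SE = 0.14, edgeR adjusted p = 0.00024). Prkci (0.66, SE = 0.14, adjusted p = 0.00053), Prkcb (0.64, SE = 0.15, adjusted p = 0.00219) and Prkce (0.41, SE = 0.16, adjusted p = 0.042) were also higher, and Prkcq was lower (−0.92, SE = 0.13, adjusted p = 4.31e-06, all by edgeR). The call of Prkce was lost without male naive replicate 2, male non-ensemble replicate 2, female non-ensemble replicate 1 or female naive replicate 3. The call of Prkcz in the NAc was lost without male naive replicate 1, male non-ensemble replicate 1, female non-ensemble replicate 1 or female naive replicate 3.

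Prkcd was lower in the naive libraries labelled mPFC (−1.70, SE = 0.42, edgeR adjusted p = 0.00256), and the sexes had unlike values. Female naive libraries labelled mPFC had 12.6, 11.9 and 22.4 CPM of Prkcd against 59.5, 197 and 161 CPM in female non-ensemble libraries. Male naive libraries had 142, 176 and 155 CPM against 254, 210 and 68.1 CPM in male non-ensemble libraries. Tested alone within the fit of both sexes, females gave −3.23 and males −0.16, and the difference between them was not tested. The naive NAc libraries had 10.8 to 12.8 CPM of Prkcd, a level that 2 of the 3 female naive libraries labelled mPFC shared.

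Each sex was also tested alone within the fit of both sexes. In the NAc females alone gave 5 calls (Prkca, Prkcb, Prkce, Prkci and Prkcz, all higher in naive libraries, background 10.9%). Males alone gave 2 calls there (Prkch, 1.20, and Prkcq, −1.06, background 10.1%). In the libraries labelled mPFC females alone gave the 6 called over both sexes (background 28.1%), and males alone only Prkcq (−1.24, background 15.3%). With length-scaled counts Prkch (0.46), Prkci (0.52) and Prkcz (0.46) lost their calls in the NAc and Prkce (0.16) in the libraries labelled mPFC, and Prkcd passed in the NAc (−0.91, adjusted p = 0.00464). Pan-neuronal markers summed to 2762 to 4551 CPM in naive and 2508 to 2926 CPM in non-ensemble NAc libraries, and to 2433 to 4639 CPM against 1228 to 2523 CPM in the libraries labelled mPFC, and their part in these changes was not tested. The male naive files are written with more decimals than all others, and several transcripts stood apart in them. Prkcd-201 held 56.2 ± 13.5% of Prkcd counts in male naive libraries (SD, n = 6) and 0 in the other 54. Prkcb-205 held 15.8% in male and 37.7% in female naive libraries, and Prkcz-201 was at 2.38 to 4.72 CPM in male and 56.0 to 145 CPM in female naive libraries. How male naive libraries were processed and the sex of the naive mice cannot be told apart here.

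Transcript types differed between members. Averaged over libraries, protein-coding transcripts took 95.4% of the counts of Prkce, 94.6% of Prkcz, 93.9% of Prkca and 91.0% of Prkci. They took 63.2% of Prkcd, with 36.8% in retained-intron transcripts, and 59.3% of Prkch. For Prkcb, Prkcb-205, annotated as subject to nonsense-mediated decay and with the same coding positions as Prkcb-202, took 41.6% of counts and protein-coding transcripts 50.2%, nearly all of it the beta II form Prkcb-202 (48.9%). For Prkcz, the short form Prkcz-202 took 61.9% and the full-length Prkcz-201 29.9%.

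**Figure D4:**
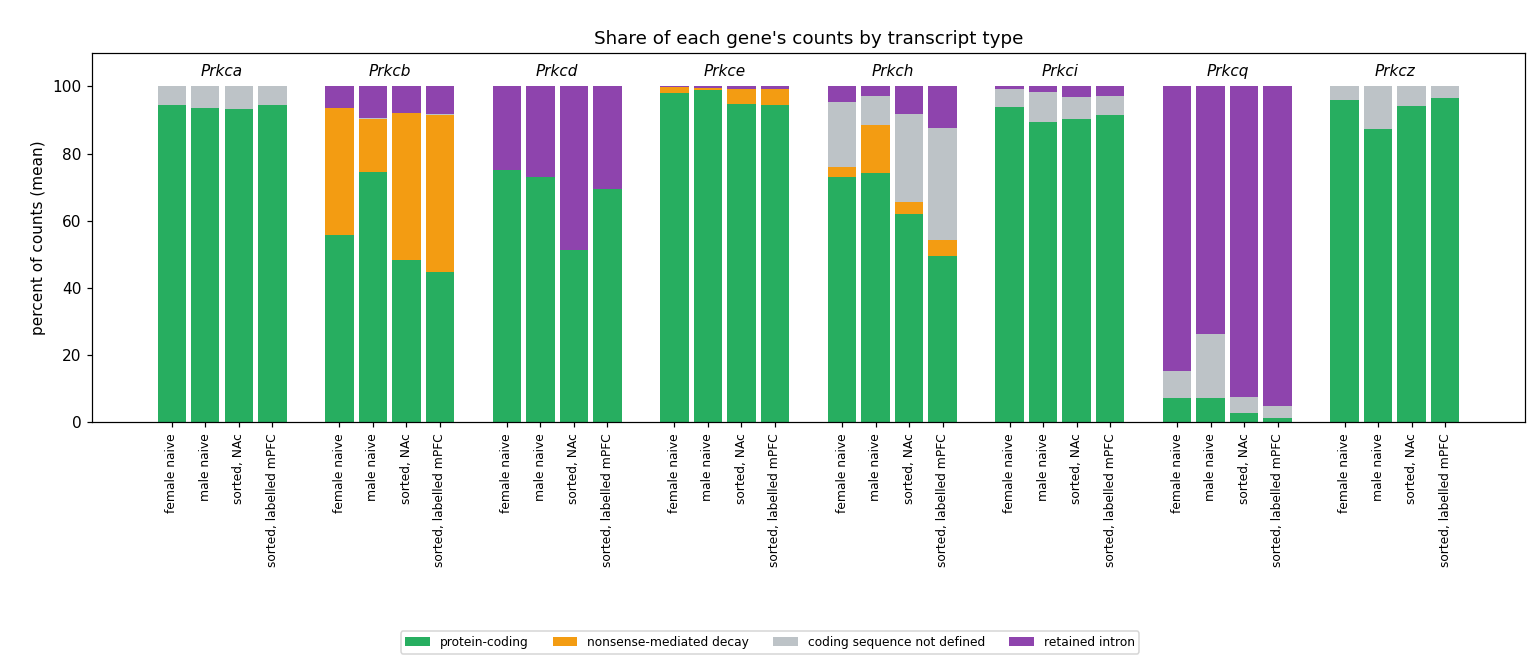
Percent of each gene's counts by annotated transcript type (stacked, mean over libraries) in female naive, male naive, sorted NAc and sorted libraries labelled mPFC, for the 8 Prkc genes. Retained-intron transcripts fill most of the Prkcq bar in each set of libraries, from a mean of 72.4% for Prkcq-203 in male naive to 94.4% in sorted libraries labelled mPFC.

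Prkcq stood out, since only 3.08% of its counts were on protein-coding transcripts and 90.8% on retained-intron ones. Prkcq-203 held 91.9 ± 2.52% in sorted NAc libraries and 94.4 ± 1.67% in sorted libraries labelled mPFC (SD over libraries), against 84.6 ± 6.39% in female and 72.4 ± 3.96% in male naive libraries. Retained-intron Prkcq reached 83.6 to 129 CPM (median 117) in sucrose-seeking and 48.1 to 83.3 CPM (median 62.6) in non-ensemble NAc libraries. Protein-coding Prkcq was at 0.54 to 3.49 CPM (median 1.96) and 0.44 to 4.43 CPM (median 3.47) in the same groups, a level of few counts. The 4 called changes of Prkcq over both sexes thus lay in the retained-intron transcript, and each turned its sign with protein-coding transcripts alone, to −0.30 and −0.43 in the sucrose-seeking and to 0.48 and 0.31 in the naive comparisons of the NAc and of the libraries labelled mPFC, none of them passing.

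**Figure D5:**
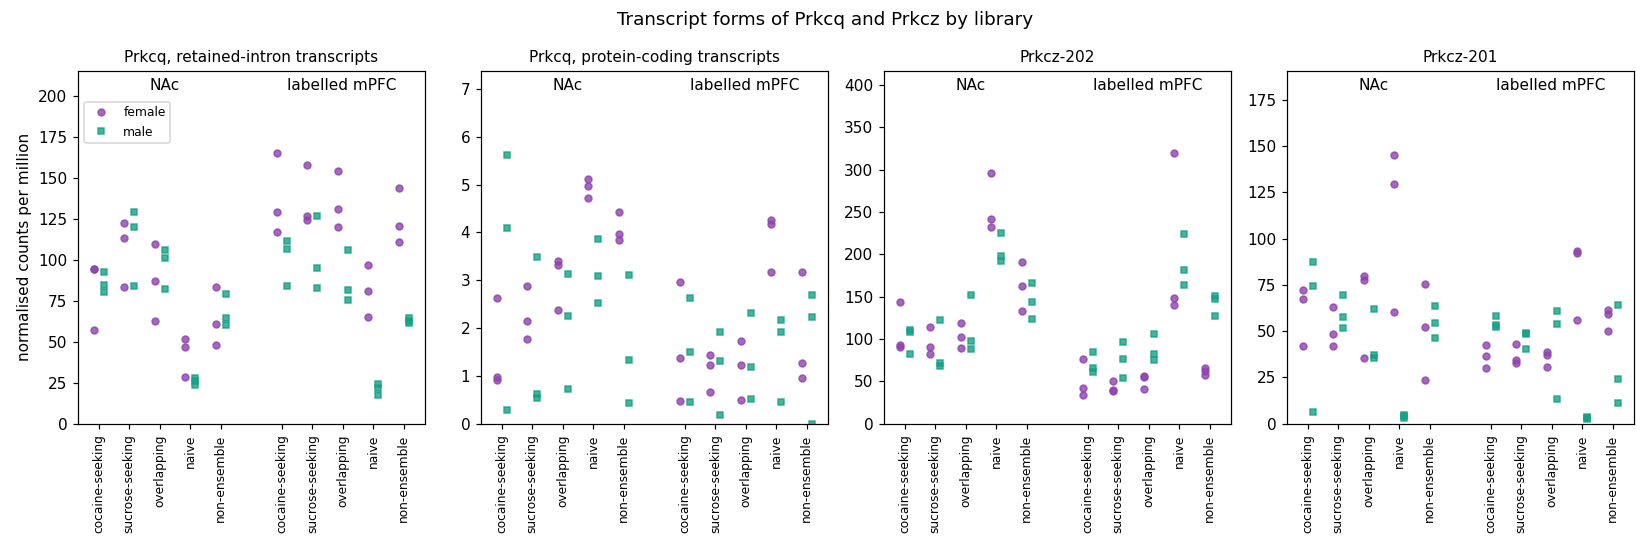
Level in CPM by library of retained-intron and protein-coding Prkcq and of the short and long Prkcz transcripts (Prkcz-202 and Prkcz-201), by population in the NAc and in the libraries labelled mPFC. Retained-intron Prkcq lies at 48.1 CPM or above in each sorted library, and protein-coding Prkcq at 5.62 CPM or below.

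Both Prkcz transcripts were found in each population. The short form was at 68.6 to 122 CPM (median 86.1) in sucrose-seeking, 82.2 to 143 CPM (median 101) in cocaine-seeking, 88.1 to 152 CPM (median 100.1) in overlapping and 124 to 191 CPM (median 153) in non-ensemble NAc libraries. The long form was at 41.7 to 69.3 CPM (median 54.6) in sucrose-seeking, 6.16 to 87.1 CPM (median 70.0) in cocaine-seeking, 35.6 to 79.6 CPM (median 49.5) in overlapping and 23.6 to 75.3 CPM (median 53.3) in non-ensemble NAc libraries. The sucrose-seeking and non-ensemble ranges of the short form did not overlap, while those of the long form did. These forms were not tested on their own.

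Around the kinases, 59 genes of the pathway were counted in 6 lists, and all were measured. They were not counted with length-scaled counts, under which several members lost their calls. In the sucrose-seeking NAc 22 of the 59 fell and 5 rose (27 called, against a background of 27% of all genes; median −0.23, all genes 0.20). In the libraries labelled mPFC 17 fell and 3 rose (20 called, background 13%; median −0.17, all genes 0.12). The substrates moved most, with 8 of 9 lower in the sucrose-seeking NAc. Among them were Marcks, an actin-binding membrane protein (−0.78, SE = 0.10, edgeR adjusted p = 4.71e-05), Gap43, a growth cone protein (−0.82, SE = 0.13, adjusted p = 6.82e-05), and Nrgn, which binds calmodulin in dendrites (−0.88, SE = 0.15, adjusted p = 0.000149). Of the substrates, 7 of 9 fell in the libraries labelled mPFC, Nrgn by 0.87, Marcks by 0.64 and Gap43 by 0.74 on the log2 scale.

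Of the 10 anchors and partners, 6 fell in the sucrose-seeking NAc, with Akap5, which holds PKC at the synapse (−0.90, edgeR adjusted p = 6.94e-05), Sqstm1, a partner of the atypical PKCs (−0.74, adjusted p = 0.000248), and Wwc1 (KIBRA, −0.66, adjusted p = 0.000206). There were 4 that fell in the libraries labelled mPFC, among them Akap5 by 0.94, Sqstm1 by 0.77 and Rack1, a receptor for activated PKC, by 0.41. Upstream, 4 of the 15 genes of the Gq, phospholipase C and PDK1 list fell in the sucrose-seeking NAc, against a background of 27% of all genes. Among them were Gna11 (−0.74), Gnaq (−0.60) and Pdpk1 (−0.55), which phosphorylates the PKC activation loop. For the libraries labelled mPFC 3 of the 15 fell (background 13%), among them Gna11 (−0.50) and Plcb1 (−0.39), and Plcd4 rose (0.51).

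Other proteins that bind or use up diacylglycerol made up a pair of lists. The backgrounds were 27% of all genes in the sucrose-seeking NAc and 13% in the libraries labelled mPFC. Of 9 diacylglycerol kinases, Dgkq (0.30, edgeR adjusted p = 0.0297) and Dgka (0.46, edgeR adjusted p = 0.0357) rose in the sucrose-seeking NAc and none fell. Dgkq alone rose in the libraries labelled mPFC (0.42, edgeR adjusted p = 0.0228). Of 9 other diacylglycerol effectors, 3 fell and 2 rose in the NAc. Chn1, a Rac regulator (−0.70, adjusted p = 9.87e-05), and Rasgrp1, a Ras activator (−0.50, adjusted p = 0.0198), were lower. Unc13b, a vesicle-priming protein (0.54, adjusted p = 0.00241, all by edgeR), was higher. In the libraries labelled mPFC 2 of these 9 fell, Chn1 (−0.66, edgeR adjusted p = 0.00134) and Rasgrp1 (−0.56, adjusted p = 0.00316), and 0 rose.

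In the cocaine-seeking ensemble edgeR without the block called 0 of the 59 against non-ensemble neurons in the NAc (background 0.145%). It called 0 in the libraries labelled mPFC (background 0.0901%). At an unadjusted p under 0.05 were 13 in the NAc (4628 of 27546 genes tested) and 19 in the libraries labelled mPFC (5543 of 28851). DESeq2 called 1 (background 5.37%) and 9 (background 6.08%). With the replicate block 15 were called in the NAc, all lower (background 9.35%), and 22 lower and 1 higher in the libraries labelled mPFC (background 15.8%). Against the sucrose-seeking ensemble 8 were higher and 0 lower in the NAc (background 5.29%), and with the block 18 higher and 2 lower (background 15%). Of these, 4 are substrates, among them Marcks (0.57, edgeR adjusted p = 0.00728), Gap43 (0.54, adjusted p = 0.0192) and Nrgn (0.57, adjusted p = 0.0267). The others are Akap5 (0.54), Sqstm1 (0.49), Gnaq (0.42) and Chn1 (0.40). For cocaine-seeking over sucrose-seeking in the NAc, length-scaled counts called only 1 gene of all genes tested. At most 1 of these 8 calls could thus hold under that setting. For the overlapping ensemble against non-ensemble neurons edgeR without the block called 0 of the 59 in the NAc (background 1.97%). There 18 were at an unadjusted p under 0.05 (6200 of 27546 genes tested), and DESeq2 called 8 (background 8.64%). In the libraries labelled mPFC 1 was called (background 0.568%), Akap5, which was lower (−0.63, edgeR adjusted p = 0.037). With the block 21 were lower and 2 higher in the NAc (background 16%), and 22 lower and 1 higher in the libraries labelled mPFC (background 14.4%).

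In naive libraries 15 of the 59 were higher and 2 lower in the NAc (17 called, background 21.6%), and 29 higher and 2 lower in the libraries labelled mPFC (31 called, background 39%). Among substrates, Nrgn (0.78 in the NAc, 1.29 in the libraries labelled mPFC), Marcks (0.53 and 0.80) and Add1, an adducin of the membrane skeleton (0.44 and 0.62), were higher in both. Of the anchors, Akap5 (0.80 and 1.15) and Rack1 (0.47 and 0.84) were higher in both, Akap12 was lower in the NAc (−0.89, edgeR adjusted p = 1.19e-05) and Akap7 higher in the libraries labelled mPFC (0.98). Of the diacylglycerol kinases, Dgka (−0.54 and −0.51) was lower in both, Dgkb (0.88) was higher in the NAc, and Dgkz (1.00) and Dgki (0.64) were higher in the libraries labelled mPFC. Upstream, Pdpk1 (0.41 and 0.60) and Plcb1 (0.41 and 0.57) were higher in both and Plch2 (0.88) in the libraries labelled mPFC. Chn1 (0.55 and 0.87) and Unc13a (0.38 and 0.41) were higher in both, with Rasgrp2 (0.60) higher in the NAc and Rasgrp4 lower in the libraries labelled mPFC (−0.88).

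Between regions, 28 of the 59 were higher and 3 lower in the NAc over both sexes (31 called, background 22.8%). They include Plch2, a phospholipase C (1.36, edgeR adjusted p = 5.18e-06), Plcb1 (0.76) and Pdpk1 (0.61), and the diacylglycerol effectors Rasgrp1 (1.14, adjusted p = 5.57e-06), Chn1 (0.77) and Unc13c (1.32). Of the diacylglycerol kinases Dgkg was lower in the NAc (−1.88, adjusted p = 4.66e-05), and Dgki (0.91) and Dgkd (0.68) were higher. Higher substrates and anchors were Marcks (0.64), Nrgn (0.74), Add2 (0.71), Akap12 (0.96), Pard3 (0.48) and Pard6a (0.41), the last a partner of the atypical PKCs. In females 39 were higher and 1 lower (background 41.9%), and in males 3 and 1 (background 1.89%), with Plch2 (1.06), Rasgrp1 (0.79) and Akap12 (0.87) higher and Dgkg (−2.22) lower.

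The genes most like each member were sought by Pearson correlation of mean log2 CPM over the 20 groups, among 11177 genes of at least 10 CPM on average. The groups share pools and libraries of like depth, so the correlations are descriptions. For Prkcb they were Ghitm, Ppp1ca and Pdpk1 (each 0.99), for Prkce Hspa12a, Golga2 and Zwint (each 0.99), and for Prkcz Mapk8ip1 (1.00), Lrrc8b and Sipa1l1 (each 0.99). Prkcd ran with Trpc4, Prdm16 and Rasd1 (each 0.98), Prkci with Fbxo11, Sugt1 and Cnbp (each 0.98), Prkch with Nexn and Gpr52 (0.97) and Cd4 (0.96), and Prkca with Wasl, Wbp11 and Rgl1 (each 0.96). Prkcq ran with Tnfrsf10b (0.998), Vmn1r81 and Vmn2r53 (each 0.997).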

How the data were processed

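RNA of 60 libraries was sequenced by the authors as paired reads after a low-input SMART-seq preparation with ribosomal depletion. Per the labels and the study's methods, reads were trimmed with cutadapt and quantified with Salmon against a GRCm39 transcriptome. The sources used here do not give the versions of these tools or the transcript set. FastQC and DESeq2 are also listed in the submitters' processing notes. The deposited values are estimated counts and TPM per transcript, with effective lengths in bases, all as the authors' Salmon runs gave them.

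Counts and TPM of 117209 transcripts were summed per gene with GENCODE release M39 (GRCm39), which matched 116085. The other 1124 hold 2.23 to 7.10% of the counts of sorted and 0.93 to 3.12% of naive libraries and were left out. Counts were rounded. Whether strand was used is not stated in these sources, so reads of a member and of a gene on its other strand cannot be told apart. With R 4.3.3, edgeR 4.0.16 quasi-likelihood fits (TMM, filterByExpr, limma 3.58.1) were made per sex and region (12 libraries), per region over both sexes (24), with naive libraries added (30) and on 12 pool sums. P-values were adjusted over all genes, and a gene was called at an adjusted p under 0.05. DESeq2 1.42.0 was an alternative, as were fits on length-scaled counts (TPM times the mean effective length of a gene, scaled to each library's total). Backgrounds by DESeq2 are shares of the genes to which it gave an adjusted p. These can be far fewer than the genes tested by edgeR, so the backgrounds of these tools are not on the same genes. Transcript shares were compared with an exact permutation test in SciPy 1.17.1 (Python 3.11.15). The fits were first tested on simulated data. CPM carry TMM factors. Marker sums are sums of CPM over a list.

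Same-numbered sorted libraries come from the same pool by design, and their residuals correlated, in the median of 18 pairs each, at 0.31 in female NAc (−0.17 between unlike numbers), 0.36 in female mPFC (−0.23), 0.22 in male NAc (−0.12) and 0.40 in male mPFC (−0.20). The replicate block pairs them. Naive libraries share only the number with the others. Without the block, p-values measure the spread between pools of 3 mice within a group. These fits take the groups as independent, although populations and regions share pools. With the block, p-values measure the spread left once differences between pools are taken out.

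Members and gene lists were chosen with earlier results of these data known. All 8 members are named, with the 3 most similar genes. From each pathway list up to 3 called genes by adjusted p were eligible to be named per comparison. They are named for the comparisons over both sexes, except that genes of 1 list are not reported here, and not repeated for each sex between regions. Protein sequences were not used here. The fits with protein-coding transcripts only, without female pool 2 with the sexes of the naive comparison apart, with transcript shares paired by pool and with the pathway lists under the block and DESeq2 were chosen after seeing the data.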

Additional observations from a re-analysis of the deposited data

How the results depend on the processing

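Numbers are members called out of 8. With the replicate block (same-numbered pools paired), the count of calls was 5 in place of 0 for cocaine-seeking over non-ensemble in the NAc and 6 in place of 0 in the libraries labelled mPFC. For overlapping over non-ensemble it was 5 in place of 0 in each region, for cocaine-seeking over sucrose-seeking 5 in place of 2 in the NAc and 1 in place of 0 in the libraries labelled mPFC, for the sex difference of the regions 2 in place of 0, and within sex and region 48 in place of 7 of 160. With DESeq2 it was 1 in each region for cocaine-seeking over non-ensemble, 3 (NAc) and 2 (libraries labelled mPFC) for overlapping over non-ensemble, 2 and 0 for cocaine-seeking over sucrose-seeking, 5 for the sex difference and 16 within sex and region. No call of a gene was lost with the block.

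Length-scaled counts gave 3 calls in place of 5 for sucrose-seeking over non-ensemble in the NAc and 0 in place of 4 in the libraries labelled mPFC, 0 in place of 2 for cocaine-seeking over sucrose-seeking in the NAc, 1 in place of 7 within sex and region, 3 in place of 5 for naive over non-ensemble in the NAc and 3 in place of 5 between regions. Under them Prkce in the male NAc, sucrose-seeking over non-ensemble, was at 0.015 in place of −0.70. Under a stricter rule (adjusted p under 0.01 with a log2 fold change beyond 0.75 either way), 0 calls were left within sex and region, for sucrose-seeking over non-ensemble in either region and for cocaine-seeking over sucrose-seeking in the NAc, 2 in each naive comparison and 1 between regions. Without a filter on low counts, or with protein-coding transcripts only, 1 call was left for cocaine-seeking over sucrose-seeking in the NAc. Males alone gave 2 naive calls in the NAc and 1 in the libraries labelled mPFC. Prkcq with protein-coding transcripts only was at −0.30 and −0.43 for sucrose-seeking and 0.48 and 0.31 for naive over non-ensemble (NAc, then libraries labelled mPFC). Transcript shares passing fell to 1 of 8 from TPM and with non-ensemble libraries alone, and to 0 with same-numbered pools paired (replicate block, exact sign-flip). With 6 pairs the exact sign-flip test allows no p under 0.031. Prkcd-207 and Prkcq-203 were both at this p and could not pass after adjustment over the 8 members. The cause of these changes was not tested.

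Leaving out single replicates gave 3 to 9 calls within sex and region, 5 to 6 for sucrose-seeking over non-ensemble in the NAc and 0 to 3 in the libraries labelled mPFC, 0 to 2 for cocaine-seeking over sucrose-seeking and 0 to 1 for overlapping over non-ensemble in the NAc. It gave 4 to 6 and 5 to 6 for naive libraries, 3 to 5 between regions, 5 to 7 in females, 1 in males, 0 to 4 for the sex difference and 1 to 3 for transcript shares.

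Counts over all genes moved too. For cocaine-seeking over non-ensemble, 40 genes were called in the NAc and 26 in the libraries labelled mPFC, against 418 and 1141 by DESeq2, 2576 and 4552 with the block and 7 and 1 with length-scaled counts. For sucrose-seeking over non-ensemble in the libraries labelled mPFC 3742 were called, against 7290 with the block and 1570 with length-scaled counts. For cocaine-seeking over sucrose-seeking in the NAc 1456 were called, against 4128 with the block and 1 with length-scaled counts. The sex difference of the regions had 0, against 5633 by DESeq2 and 1270 with the block. Size factors of DESeq2 moved the median of all genes between regions in females to −0.17, against −0.32. Without female pool 2, the naive comparisons gave 5 and 6 calls and regions 4, Prkci (0.29) being lost.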
